A study of Mus musculus with 6 samples.

Results

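The comparison described here sets cochlear RNA taken 24 h after noise and dexamethasone against cochlear RNA from mice exposed to noise only. Each side was measured on 1 Agilent one-colour microarray, and the difference was taken as dexamethasone 24 h minus noise only, so a positive value means a higher level with dexamethasone. The genes described were those whose probe was well above background on both arrays, 23427 of the 37318 genes on the array. All mice in the series were female C57BL/6 mice aged 6 weeks, with 6 mice in each of 6 groups. The noise-only group was exposed to intense noise for 2 h, and its labels give neither an injection nor a time after the exposure. The other treated group had the same 2 h exposure, then dexamethasone sodium triphosphate, a synthetic glucocorticoid, at 10 mg/kg into the peritoneum straight after the noise, and the cochleae were dissected 24 h later. An unexposed baseline group, saline groups at 12 h and 24 h and a dexamethasone group at 12 h complete the series. The sources used here do not say whether RNA of the 6 mice was pooled. Dexamethasone, the injection itself and the time after noise cannot be told apart in this comparison, so values of the saline 24 h array are set beside the main results. With 1 array per group no difference could be tested against replicate error, no p-value is given, and intervals cover the spot error reported by the scanner software only.

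Dexamethasone acts through the glucocorticoid receptor, a steroid-activated transcription factor that binds DNA near genes such as Fkbp5, Tsc22d3 and Per1 and also restrains inflammatory transcription. The cochlea contains sensory hair cells, supporting cells, the potassium-secreting stria vascularis, the fibrocytes of the spiral ligament and the spiral ganglion neurons, all enclosed in bone that holds marrow. It expresses glucocorticoid receptors and runs a circadian clock, a feedback loop in which the activators Arntl (BMAL1) and Clock bind E-box DNA to switch on the period, cryptochrome and REV-ERB repressors, while Dbp, Tef and Hlf bind D-box DNA in output genes. Type I interferon signalling works through a separate element, the ISRE, in front of antiviral genes.

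Clock repressor and output genes and interferon-response genes were lower on the dexamethasone 24 h array, and the promoters of some of them are shown because they hold the elements named above. The windows are the 250 bases before the RefSeq transcription start in GRCm38.p6, written 5′ to 3′ along the gene, with the motif in capitals. The E-box searched for was CACGTG, which reads the same on both strands, and 5 of the 12 clock repressor and output genes with a promoter sequence held it before at least 1 of their listed starts, against 6.86% of 27025 genes and 6.02% of their 32851 promoters. The 5 genes with it had a median difference of -0.85 and the 7 without it -1.24. The D-box searched for was TTATGTAA or TTACGTAA on both strands, and Per3 alone of these 12 genes held it, against 1.095% of genes and 0.931% of promoters. The ISRE searched for was GAAA, any 2 bases and GAAA, read on the other strand as TTTC, any 2 bases and TTTC, and 13 of 23 interferon-response genes with a promoter sequence held it, against 3.46% of genes and 2.98% of promoters. A motif match is a description of the letters and does not show binding. Ciart is shown for its 3 E-boxes (chr3:95882229-95882478, minus strand), Tef for an E-box in front of its second listed start (chr15:81811164-81811413, plus strand), Per3 for its 2 D-boxes (chr4:151044666-151044915, minus strand) and Ifit3 for its 2 ISREs (chr19:34583279-34583528, plus strand).
Ciart: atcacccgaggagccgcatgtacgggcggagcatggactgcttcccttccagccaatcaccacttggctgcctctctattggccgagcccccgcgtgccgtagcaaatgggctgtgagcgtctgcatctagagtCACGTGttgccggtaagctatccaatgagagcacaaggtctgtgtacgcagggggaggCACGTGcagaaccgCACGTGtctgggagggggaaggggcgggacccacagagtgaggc
Tef: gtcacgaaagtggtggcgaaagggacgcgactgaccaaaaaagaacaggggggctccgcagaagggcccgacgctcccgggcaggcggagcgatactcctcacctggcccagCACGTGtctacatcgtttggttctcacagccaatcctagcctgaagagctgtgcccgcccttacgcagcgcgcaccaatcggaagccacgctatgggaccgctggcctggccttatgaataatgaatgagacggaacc
Per3: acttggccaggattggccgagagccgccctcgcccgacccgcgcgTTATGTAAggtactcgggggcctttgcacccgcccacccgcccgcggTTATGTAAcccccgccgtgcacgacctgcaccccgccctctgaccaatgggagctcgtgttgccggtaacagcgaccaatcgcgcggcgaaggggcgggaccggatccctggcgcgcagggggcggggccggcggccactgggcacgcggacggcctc
Ifit3: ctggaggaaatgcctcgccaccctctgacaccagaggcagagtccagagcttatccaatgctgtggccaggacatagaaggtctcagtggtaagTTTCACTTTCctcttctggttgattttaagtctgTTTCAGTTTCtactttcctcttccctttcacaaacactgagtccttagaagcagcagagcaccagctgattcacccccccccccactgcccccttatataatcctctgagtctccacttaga

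Levels below are log2 signal relative to the 75th percentile of each array, so a level of 0 equals that percentile, and levels are compared between arrays for 1 gene and never between genes. With dexamethasone 484 of the 23427 genes (2.07%) had at least 2-fold more signal and 474 (2.02%) at least 2-fold less, together 4.09%. Values above 0 made up 53.0% of genes and values below 0 made up 47.0%. These shares over all genes are set beside the gene lists below as a description only. The lists were chosen with earlier results of these data known. The median difference was 0.02, with the middle 50% of genes between -0.13 and 0.20. Scaling to the E1A spike-in probes, RNA added in known amount, moved every difference by -0.26 and the median of all genes to -0.25, and the split became 289 higher and 753 lower. With normexp background correction and quantile normalization it was 197 higher and 334 lower. A gene or list with a value between 0 and 0.26 therefore lies on the other side of 0 under spike-in scaling. This is stated below for the list medians of this comparison. Counts of genes above or below 0 are given before that scaling. In the pituitary, MHC class II, heat shock and nociceptor lists all measured members were above 0, but the lowest member was below 0.26. When the genes were ranked by signal into 4 equal sets, the share 2-fold apart was 6.76% in the dimmest set, with 290 higher and 106 lower, and 1.5% in the brightest. For 205 genes 2-fold apart with further measured probes, all of those probes had the same direction in 170 (82.9%). Saline 24 h minus noise only had 4.05% of 22969 genes 2-fold apart, 1.59% higher and 2.46% lower, and dexamethasone 24 h minus saline 24 h had 3.16% of 22710, 1.63% higher and 1.53% lower. Both arrays lay on 1 slide with the baseline and saline 24 h arrays, and the 12 h arrays lay on another slide. The share of probes well above background was 68.4% on the noise-only array and 64.7% on the dexamethasone 24 h array, and the 75th percentile of signal was 679 and 618 units.

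**Figure D1:**
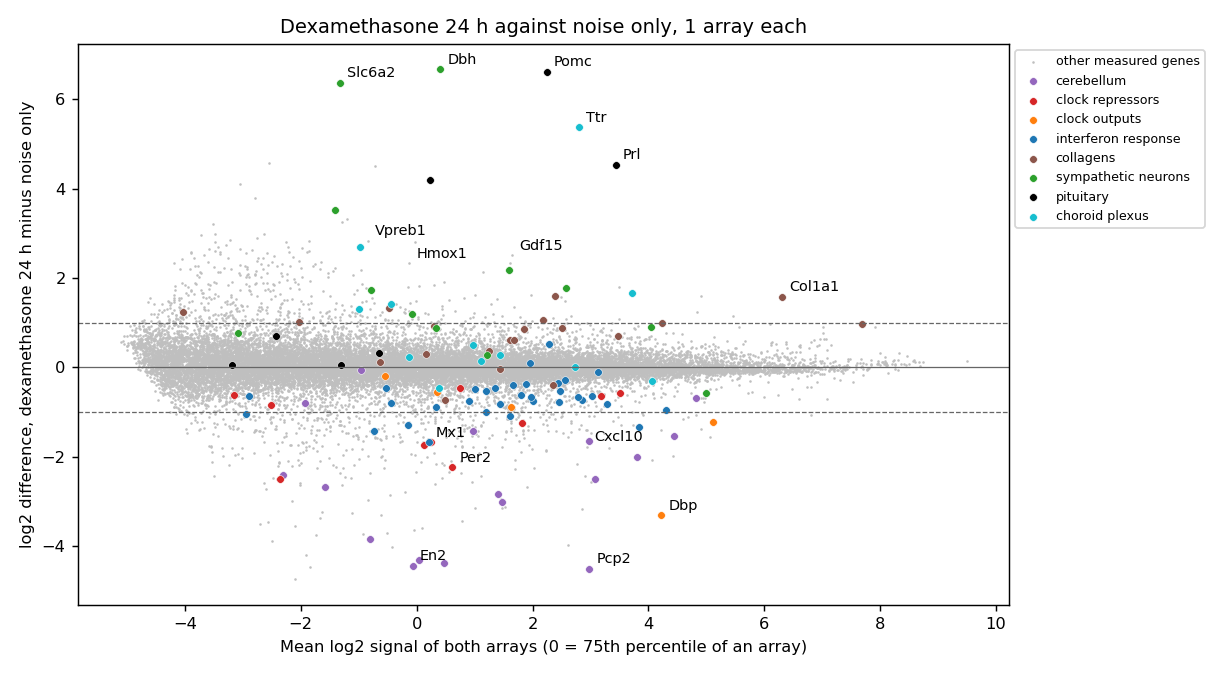
Log2 difference, dexamethasone 24 h minus noise only, against the mean log2 signal of the 2 arrays, for the 23427 genes measured on both; colours mark 8 gene lists and dashed lines mark 2-fold. Sympathetic, pituitary and choroid plexus genes form the upper edge (Dbh at 6.67), cerebellar genes the lower edge (Pcp2 at -4.50), and Dbp lies at -3.31 among the bright genes; under E1A spike-in scaling every point lies 0.26 lower.

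Many of the largest differences belonged to genes of tissues next to the cochlea. Dbh, which makes noradrenaline from dopamine, Slc6a2, the noradrenaline transporter, the pituitary hormone genes Pomc, Prl and Gh, and Ttr, the thyroid-hormone carrier made by choroid plexus, were among the highest, and Pcp2, En2, Neurod1 and Gabra6, genes of cerebellar Purkinje and granule cells, were among the lowest. The arrays of the other groups differed widely in these genes as well. In bulk tissue fewer cells of a type and less RNA per cell cannot be told apart. No dissection record was used here, and the part of neighbouring tissue in the other results was not tested except where a value is given.

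The sympathetic genes Dbh, Slc6a2 and Phox2a were high on the baseline and dexamethasone 24 h arrays and low on the other 4. Dbh (probe chr2:27038665-27038724, mm9) had a log2 level of 3.58 on the baseline array, -2.93 on noise only, -4.88 on saline 12 h, -2.50 on dexamethasone 12 h and 3.74 on dexamethasone 24 h, and on saline 24 h it was not well above background. The fold over noise only was 102 (spot-error interval 76.5 to 136). Slc6a2 had levels of 1.33 on baseline, -4.51 on noise only, -4.05 on saline 12 h, -3.74 on dexamethasone 12 h and 1.86 on dexamethasone 24 h, and was not well above background on saline 24 h. Phox2a, a transcription factor of noradrenergic neurons, was higher by 3.52, Ddc, the decarboxylase that makes dopamine, by 2.18 and Th, the rate-limiting enzyme of the pathway, by 1.77. Of 13 sympathetic genes 12 were measured on both arrays, 11 of them were above 0, against 53.0% of all genes, 7 were at least 2-fold higher, against 2.07%, and the median was 1.47. The median of the same list was -0.65 for saline 24 h minus noise only, and 1.86 for dexamethasone 24 h minus saline 24 h. These comparisons share arrays with the main one.

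Pituitary and choroid plexus genes formed a second block. Pomc, the precursor of corticotropin, had levels of 1.12 on baseline, -1.07 on noise only, 2.07 on saline 12 h, 0.93 on dexamethasone 12 h, -1.38 on saline 24 h and 5.55 on dexamethasone 24 h, the highest of the 6 arrays. Prl, which encodes prolactin, had levels of 3.85, 1.16, 5.34, 4.24, -0.43 and 5.70 on the arrays in that order, so both 12 h arrays and the baseline array also exceeded noise only. Gh, growth hormone, was 18.3-fold higher (13.8 to 24.2). Of 12 pituitary genes 7 were measured on both arrays and 2 on 1 array. All 7 were above 0, against 53.0% of all genes, 3 were at least 2-fold higher, against 2.07%, and the median was 0.71. Ttr was 5.51 on the baseline array and 5.49 on dexamethasone 24 h, and between 0.12 and 0.60 on the other 4 arrays. Folr1, a folate receptor of choroid plexus, was higher by 2.70. Enpp2 was higher by 1.66 on its main probe, and its 2 other probes had a median difference of 0.68. The choroid plexus list had 5 of 12 measured genes at least 2-fold higher, against 2.07% of all genes, and a median of 0.39, with 0.18 for saline 24 h minus noise only.

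Cerebellar genes went the other way. Pcp2, a Purkinje cell gene (probe chr8:3623377-3623436, mm9), had levels of 0.27 on baseline, 5.23 on noise only, 5.03 on saline 12 h, 4.91 on dexamethasone 12 h, 2.29 on saline 24 h and 0.73 on dexamethasone 24 h. The noise-only level was 22.6-fold that with dexamethasone (17.2 to 29.9), and the saline 24 h array lay between them. All 17 measured cerebellar genes of 19 were below 0, against 47.0% of all genes. Of the 17, 14 were at least 2-fold lower, against 2.02%, and the median was -2.50. Neurod1 and Gabra6, of granule cells, had differences of -4.39 and -4.31. Among genes at or above the median signal, the 15 lowest also held the cerebellar genes Grin2c, Gabrd, Slc1a6, Fat2 and Camk4, which had differences from -3.15 to -2.83. The mean level of the list's measured genes was 0.15 on baseline, 2.37 on noise only, 1.83 on saline 12 h, 1.98 on dexamethasone 12 h, 0.64 on saline 24 h and -0.16 on dexamethasone 24 h. Saline 24 h minus noise only had a median of -2.07, so the saline 24 h array also lay below noise only in these genes.

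**Figure D2:**
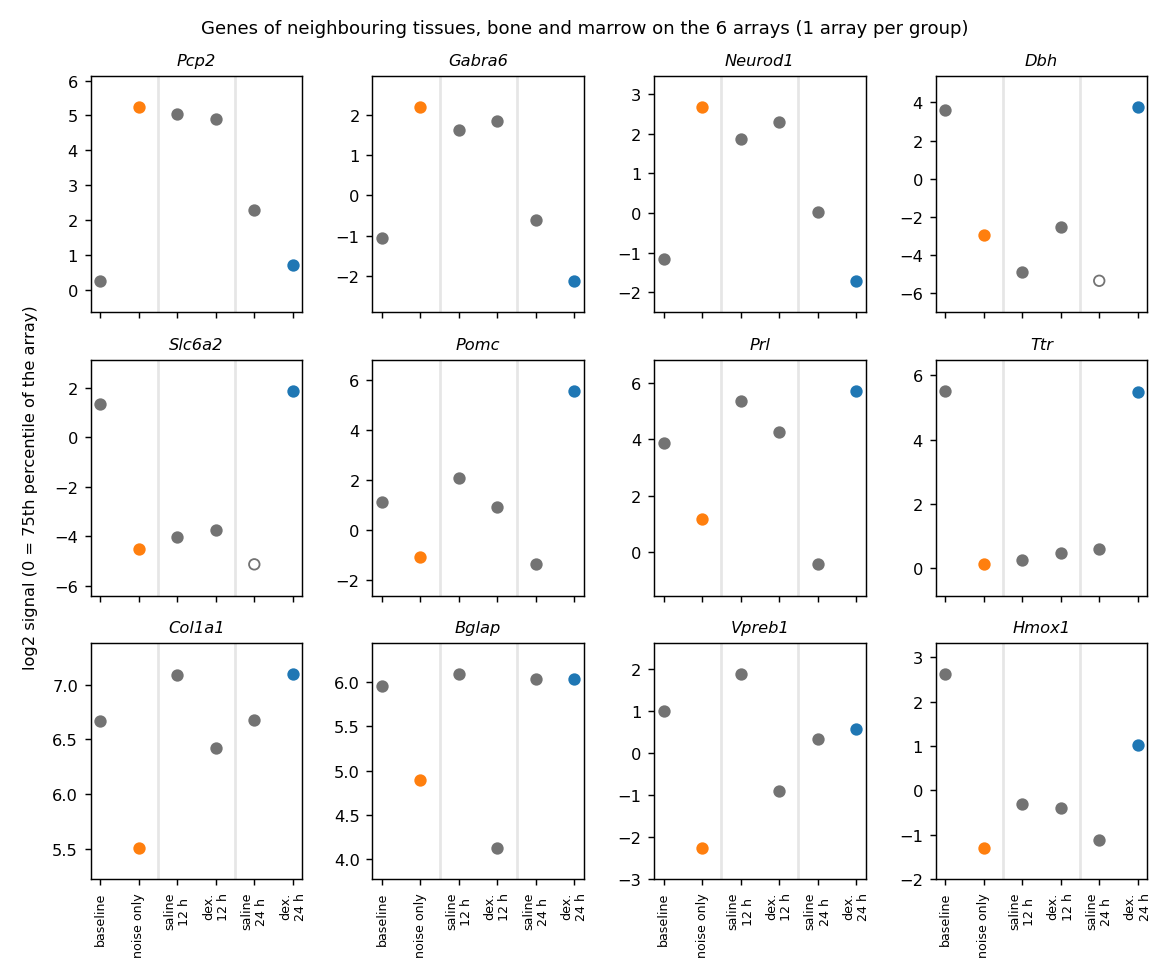
Log2 signal relative to each array's 75th percentile for genes of neighbouring tissues, bone and marrow on the 6 arrays (1 array per group; open circles were not well above background). Pcp2, Gabra6 and Neurod1 are high on the noise-only and both 12 h arrays, Dbh, Slc6a2 and Ttr on the baseline and dexamethasone 24 h arrays, and Col1a1 and Vpreb1 are lowest on noise only.

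Within the clock the repressor and output genes were lower with dexamethasone at 24 h and Arntl was higher. All 10 repressors and all 5 output genes were below 0, against 47.0% of all genes. Of the repressors 5 were at least 2-fold lower, and of the outputs 2, against 2.02% of all genes. The medians were -1.04 and -0.89. Saline 24 h minus noise only gave medians of -0.07 and 0.04 for the same lists, and dexamethasone 24 h minus saline 24 h gave -0.97 and -0.81. The cerebellar list had medians of -2.50, -2.07 and -0.57 in the same 3 comparisons, and its part in the clock values was not tested. The sources used here give no time of day for the dissections, and its part was not tested.

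Dbp, a D-box activator and a direct output of the clock (probe chr7:52965265-52965324, mm9), had levels of 3.63 on baseline, 5.88 on noise only, 3.20 on saline 12 h, 1.71 on dexamethasone 12 h, 5.79 on saline 24 h and 2.57 on dexamethasone 24 h. The noise-only and saline 24 h arrays were the high pair, and the noise-only level was 9.90-fold that with dexamethasone (7.50 to 13.1). Ciart, a repressor of CLOCK-BMAL1 whose promoter holds the 3 E-boxes above, had levels of -3.21 on baseline, -1.12 on noise only, -3.78 on saline 12 h, -4.12 on dexamethasone 12 h, -1.09 on saline 24 h and -3.60 on dexamethasone 24 h. Per2, a period repressor, had levels of -0.48, 1.73, -0.84, -0.15, 1.84 and -0.50 in the same order. For both genes the noise-only and saline 24 h arrays again stood above the other 4. The noise-only level was 5.61-fold that with dexamethasone for Ciart (3.97 to 7.93) and 4.70-fold for Per2 (3.56 to 6.21). The other probe of Ciart had a log2 difference of -0.91, short of 2-fold, so the size for Ciart depends on the probe.

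Nr1d1, which encodes the haem-binding repressor REV-ERBα, was lower by a log2 difference of -1.73 and Per3 by -1.67. Tef, the E-box gene shown above, had a difference of -1.21, with further probes in the same direction. Usp2, a deubiquitinase under clock control, had -0.89 and Hlf -0.54. Per1, which is both a clock repressor and a glucocorticoid receptor target, had -0.56 on its main probe and the opposite sign on its other probe, so its direction depends on the probe. By main probes, the lowest value among the repressors was that of Ciart and the value nearest 0 was -0.46.

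In the clock activator list, which also holds the repressor Nfil3, 4 of 6 measured genes were above 0, against 53.0% of all genes. The median was 0.34, or 0.08 under E1A spike-in scaling. The seventh gene, Npas2, was above background with dexamethasone and not on noise only. Arntl, the E-box activator BMAL1, had levels of 0.01 on baseline, -0.84 on noise only, 0.62 on saline 12 h, 0.99 on dexamethasone 12 h, -1.59 on saline 24 h and 0.41 on dexamethasone 24 h, low on the 2 arrays where Dbp was high. Its fold over noise only was 2.37 (1.80 to 3.14), and both further probes had the same direction. Nfil3, a repressor that competes at D-boxes, was 1.88-fold higher (1.43 to 2.48). Rora, an activator of Arntl that is also abundant in cerebellum, had a difference of -0.77.

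**Figure D3:**
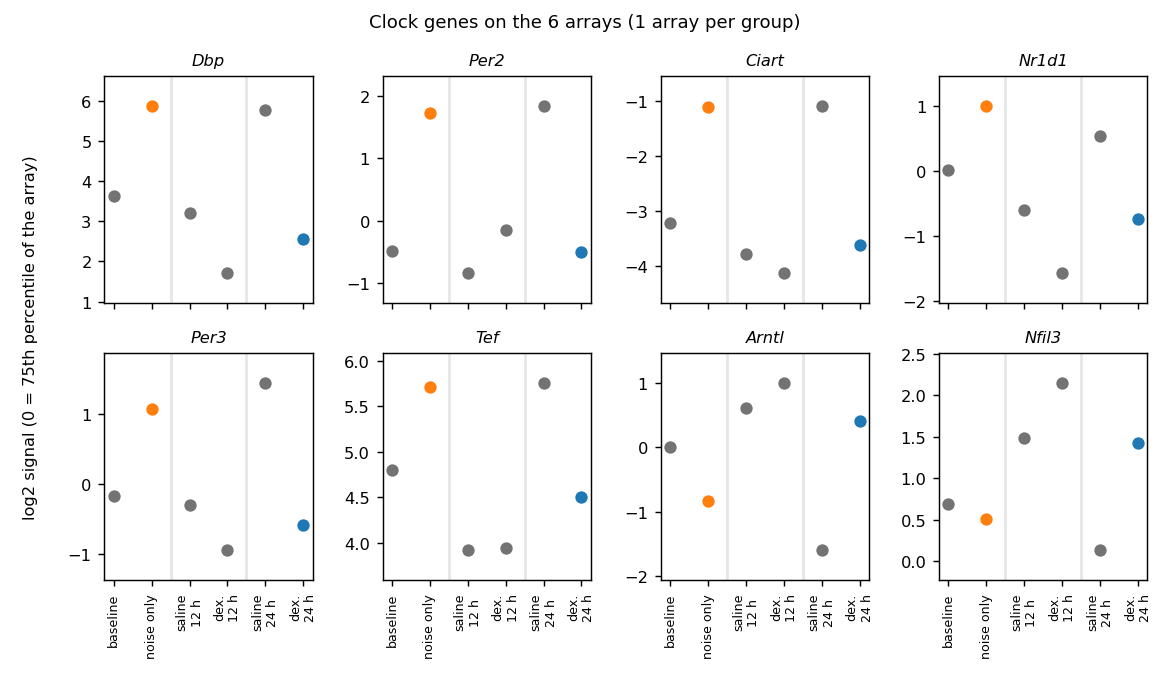
Log2 signal relative to each array's 75th percentile for 8 clock genes on the 6 arrays, 1 array per group. Dbp, Per2, Ciart, Nr1d1, Per3 and Tef are highest on the noise-only and saline 24 h arrays, where Arntl and Nfil3 are lowest.

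Interferon-response genes were lower with dexamethasone. Of 33 genes, all measured, 31 were below 0 and 7 were at least 2-fold lower, against 47.0% and 2.02% of all genes, and the median was -0.67. Saline 24 h minus noise only had a median of 0.05 and dexamethasone 24 h minus saline 24 h one of -0.81. Against the unexposed baseline the list median was 1.27 on the noise-only array and 0.68 on dexamethasone 24 h, so the genes were lower with dexamethasone and still above baseline. The 2 genes above 0 were Gbp2 and Bst2, chosen after their values were seen, with 0.53 and 0.10; Bst2 falls below 0 under E1A spike-in scaling.

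Ifit3, which binds viral RNA with its partner proteins, had levels of 1.20 on baseline, 4.50 on noise only, 3.14 on saline 12 h, 2.54 on dexamethasone 12 h, 4.55 on saline 24 h and 3.17 on dexamethasone 24 h. Noise only and saline 24 h were the high pair and the baseline array was lowest. The noise-only level was 2.51-fold that with dexamethasone (1.90 to 3.32). Mx1, an antiviral GTPase, had levels of -1.66, 1.05, -0.06, -1.05, 1.03 and -0.63 in the same order and a noise-only level 3.19-fold that with dexamethasone (2.41 to 4.21). Ifi44 and Zbp1, a sensor of Z-form nucleic acid, had differences of -1.41 and -1.28, and the other probe of Ifi44 had -0.67. The 13 genes with an ISRE in the promoter window, Ifit3 among them, had a median of -0.66 and the 10 without it -0.64.

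Chemokines had no common direction: 14 of 21 measured genes were above 0, against 53.0% of all genes. At least 2-fold higher were 2, against 2.07%, and at least 2-fold lower was 1, against 2.02%. The median was 0.07, or -0.19 under E1A spike-in scaling, with 0.09 for saline 24 h minus noise only. Cxcl10, an interferon-induced ligand of CXCR3 that draws T cells, had levels of -0.38 on baseline, 3.83 on noise only, 2.13 on saline 12 h, 1.92 on dexamethasone 12 h, 3.24 on saline 24 h and 2.05 on dexamethasone 24 h. It was 3.43-fold higher on noise only than with dexamethasone on its main probe (2.60 to 4.52). Its other probe had a log2 difference of -0.53, so the size depends on the probe. Cxcl9, the neighbouring CXCR3 ligand, was 2.43-fold higher with dexamethasone (1.81 to 3.26), though at a level of -1.97, well under the array's 75th percentile. Ccl7 and Ccl2, which draw monocytes through CCR2, were 2.31-fold and 1.85-fold higher with dexamethasone. Ccl2 had levels of -1.35 on baseline, 1.81 on noise only, 2.22 on saline 12 h, 2.33 on dexamethasone 12 h, 1.12 on saline 24 h and 2.69 on dexamethasone 24 h, the highest of the 6 arrays.

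Among cytokines and their receptors 12 of 16 measured genes were above 0, against 53.0% of all genes. Of the 16, 1 was at least 2-fold higher, against 2.07%. The median was 0.14, or -0.12 under E1A spike-in scaling, with 0.06 for saline 24 h minus noise only. Tnfrsf12a, the receptor of the injury-associated ligand TWEAK, had levels of 1.33 on baseline, 1.70 on noise only, 2.90 on saline 12 h, 2.96 on dexamethasone 12 h, 1.79 on saline 24 h and 3.28 on dexamethasone 24 h, and was 3.00-fold over noise only (2.28 to 3.96). Socs3, a feedback inhibitor of JAK-STAT signalling, had a difference of 0.69, Lifr, the receptor of leukaemia inhibitory factor, 0.73 and Il1r1 0.65. No gene of the 14 measured in the NF-kB feedback and adhesion list was 2-fold apart, and their median was 0.07, or -0.20 under E1A spike-in scaling. The acute phase list had a median of -0.04, with Saa3, a serum amyloid gene, lower by a log2 difference of -1.70 and not above background at baseline. The complement list had a median of 0.06, or -0.20 under E1A spike-in scaling, and no member 2-fold apart. Cfd, complement factor D, which adipocytes secrete, was at 0.47.

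Antigen-presentation genes divided by class. All 8 measured genes of 9 in the MHC class II list were above 0, against 53.0% of all genes, with a median of 0.63 and none 2-fold apart. H2-Aa, the class II alpha chain, had levels of 1.13 on baseline, -0.02 on noise only, 1.42 on saline 12 h, 0.05 on dexamethasone 12 h, 0.71 on saline 24 h and 0.84 on dexamethasone 24 h. Cd74, the invariant chain, had a difference of 0.75. Saline 24 h minus noise only gave a similar median of 0.69, and dexamethasone 24 h minus saline 24 h gave 0.08. The MHC class I list had a median of -0.07, with H2-T23 at -0.27.

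**Figure D4:**
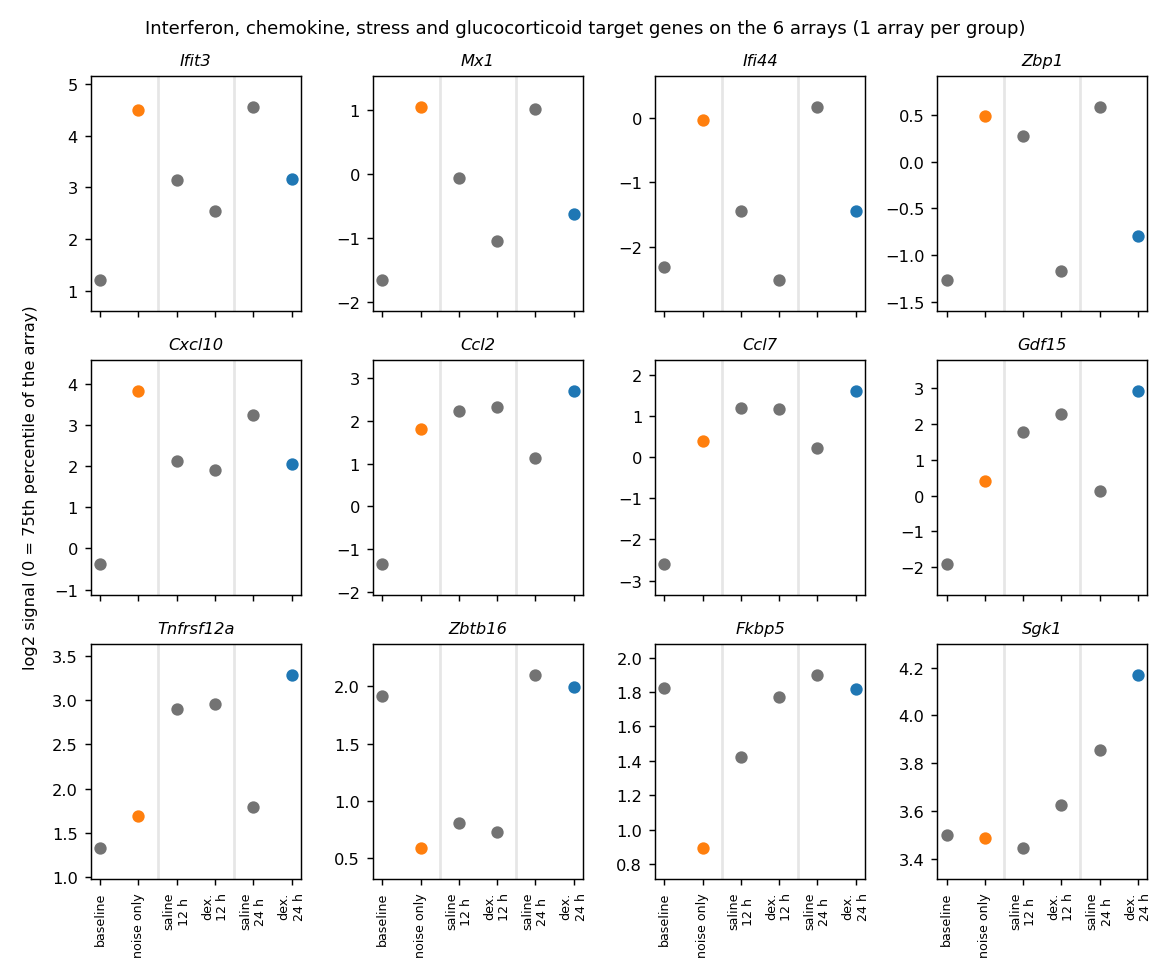
Log2 signal relative to each array's 75th percentile for interferon, chemokine, stress and glucocorticoid target genes on the 6 arrays, 1 array per group. Ifit3, Mx1, Ifi44, Zbp1 and Cxcl10 are highest on the noise-only and saline 24 h arrays; Ccl2, Gdf15, Tnfrsf12a and Sgk1 are highest on dexamethasone 24 h; Zbtb16 is about as high on baseline and saline 24 h as on dexamethasone 24 h.

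Glucocorticoid receptor target genes were slightly higher as a list. Of 30 genes, all measured, 25 were above 0 against 53.0% of all genes, 1 was at least 2-fold higher against 2.07%, and the median was 0.33, or 0.07 under E1A spike-in scaling. Saline 24 h minus noise only had a median of 0.17 and dexamethasone 24 h minus saline 24 h of 0.08. The first 2 members by difference, Zbtb16 and Fkbp5, were about as high on the saline 24 h array. Zbtb16, a zinc-finger transcription factor and sensitive receptor target, had levels of 1.92 on baseline, 0.58 on noise only, 0.80 on saline 12 h, 0.72 on dexamethasone 12 h, 2.10 on saline 24 h and 2.00 on dexamethasone 24 h, and a fold over noise only of 2.66 (2.02 to 3.51). Fkbp5, the co-chaperone that restrains the receptor itself, had levels of 1.82, 0.89, 1.42, 1.77, 1.90 and 1.82 in the same order. For both genes noise only was the lowest of the 6 arrays. Against saline 24 h the differences with dexamethasone were -0.10 for Zbtb16 and -0.08 for Fkbp5.

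Sgk1, Cdkn1a and Pdk4 were higher with dexamethasone than on both the noise-only and the saline 24 h array. Sgk1, a kinase that regulates sodium channels, had levels of 3.50 on baseline, 3.49 on noise only, 3.45 on saline 12 h, 3.63 on dexamethasone 12 h, 3.86 on saline 24 h and 4.17 on dexamethasone 24 h, the highest of the 6 arrays. Cdkn1a, the cell-cycle inhibitor p21, was 1.85-fold over noise only (1.41 to 2.45) and had a difference of 0.91 from saline 24 h. Pdk4, a kinase that shifts cells from glucose to fat use, was 1.75-fold over noise only (1.33 to 2.32). Tsc22d3, which encodes GILZ, had a difference of 0.37 from noise only and of -0.31 from saline 24 h. The receptor and its partners lay near 0, with 5 of 11 measured genes above 0, against 53.0% of all genes, and none 2-fold apart. Nr3c1, the receptor gene, was at -0.22 with its other probe in the opposite direction. In the metallothionein and zinc list the median was 0.12, or -0.14 under E1A spike-in scaling, and Mt2, a metal-binding protein gene with receptor sites, was at 0.54.

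Several stress genes stood out singly while their lists did not. Gdf15, a secreted stress cytokine, had levels of -1.91 on baseline, 0.39 on noise only, 1.76 on saline 12 h, 2.26 on dexamethasone 12 h, 0.12 on saline 24 h and 2.91 on dexamethasone 24 h, and was 5.71-fold over noise only (4.33 to 7.54). It was among the 15 highest of the genes at or above the median signal, and the 3 injected arrays other than saline 24 h were all above noise only. Hmox1, which breaks down haem, had levels of 2.61 on baseline, -1.30 on noise only, -0.30 on saline 12 h, -0.41 on dexamethasone 12 h, -1.13 on saline 24 h and 1.03 on dexamethasone 24 h, so the baseline array exceeded dexamethasone 24 h. Gem, a small GTPase that limits calcium channels, was 3.79-fold over noise only and Nmrk2, a nicotinamide riboside kinase found in muscle, 3.57-fold. The integrated stress response list had 1 of 13 genes at least 2-fold higher, Gdf15, against 2.07% of all genes. In the same list 6 of 13 were above 0, against 53.0%, and Trib3, a pseudokinase induced by that response, was at -0.90. The antioxidant list had 1 of 20 at least 2-fold higher, Hmox1, against 2.07% of all genes, and a median of -0.04. The apoptosis list had none of 15 2-fold apart and a median of -0.06, with Bax, a pore-forming death effector, at 0.59.

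All 13 heat shock genes were above 0, against 53.0% of all genes, with none 2-fold apart. Their median was 0.15, but -0.12 under E1A spike-in scaling. Bag3, a co-chaperone of HSP70, had 0.43 and Hspa1b, an inducible HSP70, 0.39. Endoplasmic reticulum chaperones had a median of 0.10, or -0.17 under E1A spike-in scaling, and Hyou1 was 2.04-fold higher on its main probe, with 1 of its 3 other probes in the opposite direction. Immediate early genes, the first to respond to cell stimulation, had 4 of 24 at least 2-fold higher, against 2.07% of all genes. At least 2-fold lower was 1, against 2.02%, and the median was 0.25, or -0.02 under E1A spike-in scaling. Egr4 had levels of -3.71 on baseline, -0.83 on noise only, -1.80 on saline 12 h, -1.40 on dexamethasone 12 h, -3.48 on saline 24 h and -4.29 on dexamethasone 24 h, the same order of high and low arrays as the cerebellar list. Fosl1 and Fosb, partners of Jun proteins in AP-1, were 3.00-fold and 2.35-fold over noise only, and Maff 2.39-fold. Fos was at 0.28, Egr1 at -0.37 and the injury gene Atf3 at -0.09.

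Fat-cell and lipid-synthesis genes were higher. Of 14 adipocyte genes 11 were above 0, against 53.0% of all genes, 2 were at least 2-fold higher, against 2.07%, and the median was 0.47. Ucp1, the heat-producing uncoupling protein of brown fat, had levels of 3.33 on baseline, 2.59 on noise only, 1.53 on saline 12 h, 2.43 on dexamethasone 12 h, 2.06 on saline 24 h and 4.40 on dexamethasone 24 h, the highest of the 6 arrays. Cidea, a lipid-droplet protein of brown fat, was 2.35-fold over noise only (1.78 to 3.10). Plin1, which coats lipid droplets, had 0.81 and Pparg, the master regulator of fat cells, 0.74. Sterol and fatty acid synthesis genes were above 0 in 15 of 17, against 53.0% of all genes. Their median was 0.35, or 0.09 under E1A spike-in scaling. The enzymes Hmgcs1, Sqle, Idi1 and Cyp51 lay between 0.56 and 0.60. For saline 24 h minus noise only the medians were -0.47 for adipocytes and -0.14 for sterol synthesis, and for dexamethasone 24 h minus saline 24 h 0.91 and 0.59. The mean level of the adipocyte list was 2.79 on dexamethasone 24 h and between 1.63 and 2.27 on the other arrays; whether its share of fat cells set the sterol values was not tested.

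Collagen and bone genes were higher than on noise only. Of 20 collagen genes 17 were above 0, against 53.0% of all genes, 7 were at least 2-fold higher, against 2.07%, and none at least 2-fold lower, against 2.02%. Their median was 0.87. Col1a1, the main chain of bone and skin collagen, had levels of 6.67 on baseline, 5.51 on noise only, 7.09 on saline 12 h, 6.42 on dexamethasone 12 h, 6.68 on saline 24 h and 7.09 on dexamethasone 24 h. Noise only was the lowest of the 6 arrays, and the fold with dexamethasone was 3.00 (2.28 to 3.96). Col11a1, a cartilage fibril chain, was 3.02-fold higher, Col5a2 2.53-fold and Col15a1 2.37-fold. Of 20 osteoblast genes 17 were above 0, 5 were at least 2-fold higher, against the same shares, and the median was 0.72. Ifitm5, an osteoblast membrane protein, was 4.52-fold over noise only (3.41 to 6.00), and Bglap, osteocalcin, 2.21-fold.

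The saline 24 h array carried much of the same difference. Its medians against noise only were 0.46 for collagens and 0.79 for osteoblasts, and those of dexamethasone 24 h minus saline 24 h were 0.25 and 0.01. Bglap was 6.03 on both 24 h arrays, 4.89 on noise only and 4.13 on dexamethasone 12 h. Osteoclast genes had a median of 0.14, or -0.12 under E1A spike-in scaling, and no member 2-fold apart. Matrix metalloproteinases and inhibitors had a median of 0.25, or -0.02 under E1A spike-in scaling, with Timp4, an inhibitor, at -0.89 and Mmp14, a membrane-bound collagenase, at 0.82. Prss35, a protease-like secreted protein, was 5.08-fold over noise only (3.85 to 6.70), with levels of 2.94 on baseline, 0.44 on noise only, 2.90 on saline 12 h, 1.21 on dexamethasone 12 h, 2.80 on saline 24 h and 2.79 on dexamethasone 24 h.

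Marrow-derived lists were mostly near 0 in this comparison. B-cell genes were above 0 in 14 of 15 measured, against 53.0% of all genes, and 3 were at least 2-fold higher, against 2.07%. Their median was 0.29, or 0.03 under E1A spike-in scaling, with 0.71 for saline 24 h minus noise only. Vpreb1, part of the surrogate light chain of B-cell precursors, had levels of 1.02 on baseline, -2.27 on noise only, 1.88 on saline 12 h, -0.91 on dexamethasone 12 h, 0.35 on saline 24 h and 0.57 on dexamethasone 24 h, and was 7.15-fold over noise only (5.40 to 9.48). Dntt, which adds bases to rearranging antibody genes, was 4.44-fold higher. In both genes noise only was the lowest array, and the saline 24 h array was close to dexamethasone 24 h. T and NK cell genes had a median of 0.28, or 0.02 under E1A spike-in scaling, and one of 0.66 for saline 24 h minus noise only. Prf1, perforin, was at 1.42 and Klrb1c at -1.46.

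Proliferation and erythroid genes had similar low levels on these 2 arrays and a higher one on saline 24 h. The proliferation list had 5 of 28 genes above 0, against 53.0% of all genes, and none 2-fold apart. Its median was -0.13, with 0.81 for saline 24 h minus noise only and -0.94 for dexamethasone 24 h minus saline 24 h. Its mean level was 1.40 on baseline, 0.58 on noise only, 1.59 on saline 12 h, 0.80 on dexamethasone 12 h, 1.38 on saline 24 h and 0.45 on dexamethasone 24 h. Rrm2, a subunit of the enzyme that makes DNA precursors, had -0.48. Erythroid genes had the medians -0.13, 0.81 and -1.04 in the same 3 comparisons, and Klf1, an erythroid transcription factor, was at -0.48. Replication-dependent histones had a median of -0.09 and megakaryocyte genes one of -0.14.

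Granulocyte and macrophage lists also had no more than 1 member 2-fold apart. Eosinophil granule genes had a median of 0.26, or -0.01 under E1A spike-in scaling, although the median was 1.38 for saline 24 h minus noise only. Epx, eosinophil peroxidase, had levels of 0.23 on baseline, -1.88 on noise only, 2.24 on saline 12 h, -0.50 on dexamethasone 12 h, 0.14 on saline 24 h and -1.33 on dexamethasone 24 h, low on noise only and dexamethasone 24 h alike. Neutrophil genes had a median of 0.08, or -0.19 under E1A spike-in scaling, and one of 0.51 for saline 24 h minus noise only. Stfa2 was at 1.08 and Ctsg, a granule protease, at -0.65. Macrophage genes had a median of -0.06, and Cd163, the haemoglobin scavenger receptor and a known glucocorticoid-responsive gene, was 2.37-fold over noise only (1.78 to 3.14), with levels of -0.08 on baseline, -2.18 on noise only, -0.90 on saline 12 h, -0.52 on dexamethasone 12 h, -1.60 on saline 24 h and -0.93 on dexamethasone 24 h. Mast cell genes had a median of 0.53 over 11 measured genes, with Mcpt4, a mast cell protease, at 0.73, but the median was -0.0052 over genes brighter than the median of all measured genes.

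**Figure D5:**
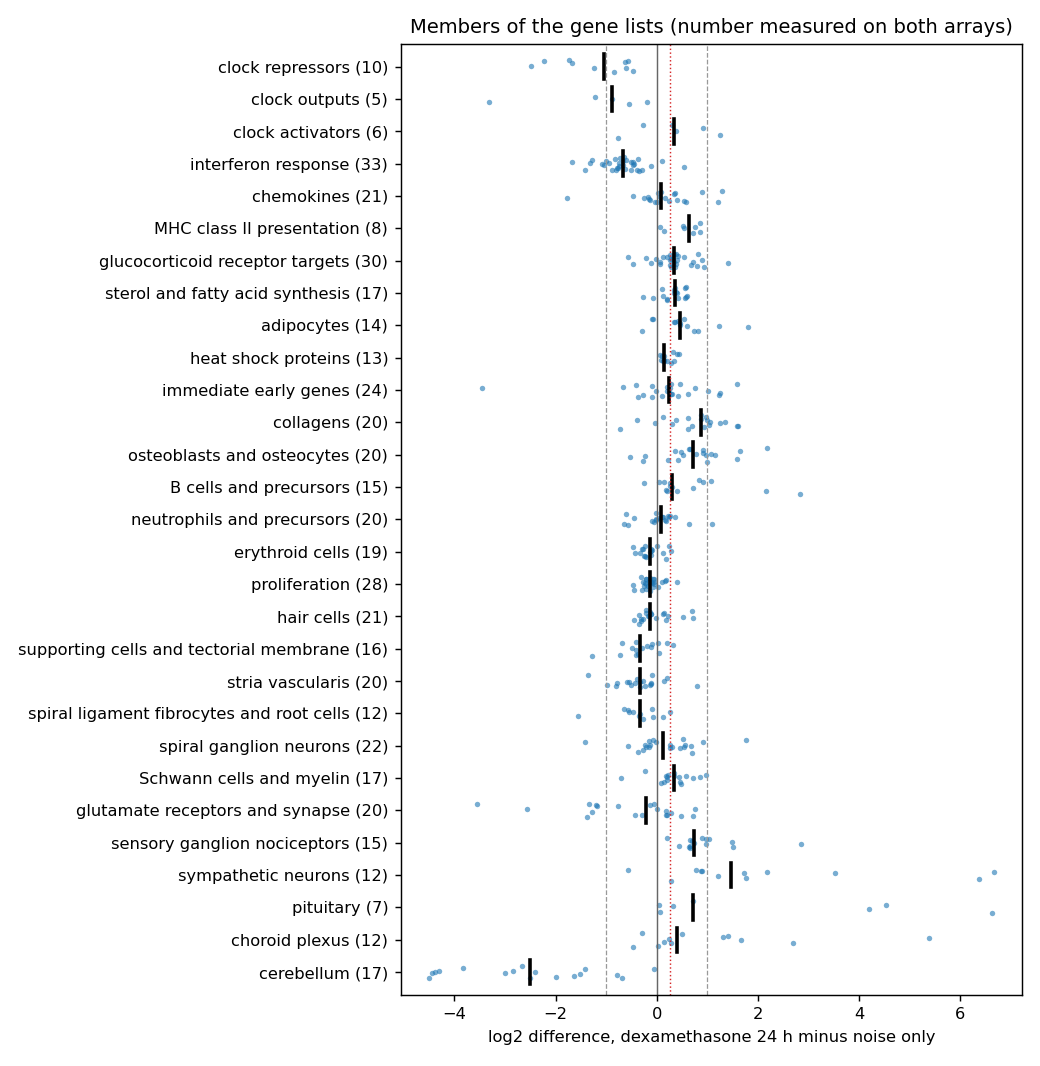
Log2 difference, dexamethasone 24 h minus noise only, for the measured members of 29 gene lists (1 point per gene, black bar at the median, dashed grey lines at 2-fold). Cerebellar, clock repressor, clock output and interferon lists lie left of 0 and sympathetic, collagen, osteoblast and nociceptor lists right. The median of the clock activator list, 0.34, also lies right of 0. The dotted red line at 0.26 is where 0 falls under E1A spike-in scaling. Medians between 0 and that line (chemokines, heat shock, immediate early, neutrophil and spiral ganglion lists) change sign under that scaling.

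The labelled tissue was present by its markers. Of 25 hair cell genes 21 were measured on both arrays, among them Myo7a, Otof, Pou4f3 and Tmc1, chosen after their values were seen, 1 on 1 array and 3 on neither, Atoh1 among the unmeasured. The hair cell median was -0.14, with 14 of 21 below 0, against 47.0% of all genes, and none 2-fold apart. Ocm, the calcium buffer oncomodulin of outer hair cells, had levels of 2.90 on baseline, 3.49 on noise only, 3.10 on saline 12 h, 2.90 on dexamethasone 12 h, 3.64 on saline 24 h and 3.04 on dexamethasone 24 h. Slc17a8, the vesicular glutamate transporter of inner hair cells, was at 0.71. The hair cell list thus held members in both directions, all within 2-fold.

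Non-sensory cochlear lists were lower with dexamethasone. Supporting cell genes were below 0 in 12 of 16 with a median of -0.33, stria vascularis genes in 17 of 20 with -0.33, and spiral ligament genes in 10 of 12 measured with -0.34, against 47.0% of all genes below 0. In each of these 3 lists 1 gene was at least 2-fold lower, against 2.02% of all genes. Slc4a11, a transporter of ligament fibrocytes, had levels of 5.68 on baseline, 5.85 on noise only, 4.80 on saline 12 h, 4.21 on dexamethasone 12 h, 6.11 on saline 24 h and 4.29 on dexamethasone 24 h, and a noise-only level 2.95-fold that with dexamethasone (2.23 to 3.89). Slc1a3, the glial glutamate transporter that supporting cells and cerebellar glia both express, had -1.29 on its main probe and -0.06 on its other probe. Gjb2 and Gjb6, the connexins that couple cochlear supporting cells, had -0.69 and -0.49, Slc26a4, the anion exchanger pendrin, -0.65 and Coch, the secreted protein cochlin, -0.57. Melanocyte genes had a median of -0.45 with 8 of 10 below 0, and Slc45a2, a pigment-cell transporter, had -1.53. The melanocyte and stria lists share pigment genes, Mlana and Tyr among them, so their values are not separate evidence. For saline 24 h minus noise only the medians were 0.11 for supporting cells, stria and ligament alike and 0.24 for melanocytes.

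Neuronal and glial lists were mixed. Spiral ganglion genes had 11 of 22 above 0, against 53.0% of all genes, and a median of 0.13, or -0.14 under E1A spike-in scaling. Nefm, a neurofilament subunit, was at 0.91 and Prph, peripherin, at 0.70. Syt2, a synaptic calcium sensor, was at -1.42, with 1 of its 2 other probes in the opposite direction. Schwann cell and myelin genes were above 0 in 15 of 17, against 53.0% of all genes. Their median was 0.34, or 0.08 under E1A spike-in scaling. Mag, a myelin adhesion glycoprotein, had levels of 3.20 on baseline, 2.40 on noise only, 1.74 on saline 12 h, 1.25 on dexamethasone 12 h, 2.53 on saline 24 h and 3.25 on dexamethasone 24 h. S100b, also of Schwann cells, was at -0.71, opposite in sign to most of the list. Glutamate receptor and synapse genes had 7 of 20 at least 2-fold lower, against 2.02% of all genes, and a median of -0.21, while saline 24 h minus noise only had one of -0.77. Grin2a, an NMDA receptor subunit, had levels of -3.81 on baseline, -0.33 on noise only, -1.65 on saline 12 h, -0.80 on dexamethasone 12 h, -3.06 on saline 24 h and -3.88 on dexamethasone 24 h. Gria1 and Gria2, AMPA receptor subunits, had -2.56 and -1.34. These receptor genes were high on the same 3 arrays as the cerebellar list, and the share of cerebellar RNA in their difference was not tested.

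Pain-fibre genes were higher. All 15 nociceptor genes were measured and above 0, against 53.0% of all genes, and 4 were at least 2-fold higher, against 2.07%. The median was 0.73, with -0.90 for saline 24 h minus noise only. Mrgprd, a receptor of skin-innervating neurons, had levels of -0.61 on baseline, -1.62 on noise only, -3.69 on saline 12 h, -1.15 on dexamethasone 12 h, -2.34 on saline 24 h and -0.14 on dexamethasone 24 h. Both saline arrays were the lowest for this gene. It was 2.79-fold over noise only (2.11 to 3.70), and Gal, the neuropeptide galanin, 2.03-fold. The mean level of the list was 0.28 on baseline, -0.18 on noise only, -1.67 on saline 12 h, -0.19 on dexamethasone 12 h, -1.25 on saline 24 h and 0.78 on dexamethasone 24 h, so it was lowest on both saline arrays. The sympathetic list moved with it, from a mean of -0.36 on noise only to 1.78 on dexamethasone 24 h, and its part in the nociceptor values was not tested.

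Skin and gland genes were lower on the arrays of this comparison than on the 12 h arrays. Epidermal genes were measured on both arrays for 9 of 20 on the array. Of these 9, 8 were above 0, against 53.0% of all genes. At least 2-fold higher were 3, against 2.07%, and the median was 0.54. Krt5, a keratin of basal skin cells, had levels of 1.42 on baseline, -2.34 on noise only, 3.35 on saline 12 h, 3.60 on dexamethasone 12 h, -0.33 on saline 24 h and -1.24 on dexamethasone 24 h, so both 12 h arrays were far above the 2 compared. Mucosal gland genes had 1 of 16 at least 2-fold higher, against 2.07% of all genes. At least 2-fold lower were 3, against 2.02%, and the median was -0.19. Bpifb1, an airway and middle-ear secretory protein, was at -2.07 and Dmbt1 at -1.84, while Muc5b, a gel-forming mucin, was at 1.43. Lipf, gastric lipase, was among those 15 lowest at -3.17, with levels of 2.84 on baseline, 4.43 on noise only, 7.92 on saline 12 h, 8.46 on dexamethasone 12 h, -1.86 on saline 24 h and 1.26 on dexamethasone 24 h. These secretory genes were highest on both 12 h arrays and lowest on saline 24 h for Lipf, Bpifb1 and Dmbt1.

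Skeletal muscle genes were below 0 in 20 of 26 measured, against 47.0% of all genes, with a median of -0.29. Myl2, a slow-muscle myosin light chain, was 2.70-fold over noise only, and Actn3, of fast muscle, was at -0.99. Muscle atrophy genes had a median of -0.01 with none of 12 2-fold apart, and Cebpd, a transcription factor that glucocorticoids induce, was at 0.71. Oxidative phosphorylation genes had a median of 0.11, or -0.16 under E1A spike-in scaling, and ribosomal protein genes one of -0.07. The 14 reference genes ranged from -0.27 to 0.23 with a median of 0.03, or -0.24 under E1A spike-in scaling. Rs5-8s1, a ribosomal RNA transcript, was 3.02-fold over noise only and highest on the 12 h arrays, at 6.96 on saline and 6.50 on dexamethasone.

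Another 444 genes were above background on the dexamethasone 24 h array only and 1520 on noise only alone, while 11927 were above it on neither. For these a bound was taken, the bright level over the dimmest signal still called above background or the dim probe's own value, whichever was higher. Out of these 444 and 1520 genes, the bound put 342 at least 2-fold higher with dexamethasone and 116 at least 2-fold lower. The dimmest signal called above background was lower on noise only than on dexamethasone 24 h. The 2 counts were thus taken over unequal floors and do not give a direction. The highest bounds were those of Cga, the alpha subunit of the pituitary glycoprotein hormones, at least 43.6-fold higher, Lamp5, a membrane protein of neurons, at least 18.8-fold higher, and Olfr1360, Platr10 and Sowahd, at least 13.7-fold higher. Lamp5 had another probe, measured on both arrays, with a log2 difference of 0.49, so the size for this gene depends on the probe. Cga was above background on baseline and both 12 h arrays too, and Olfr1360 on saline 12 h. Platr10 and Sowahd were above it on dexamethasone 24 h alone. Among the lowest were those of the cerebellar genes Cnpy1 and Cbln3 and of Ankrd60 and Olfr68, at least 21.3-fold lower for Cnpy1 and at least 12.5-fold lower for Cbln3.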

How the data were processed

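Cochlear total RNA was labelled with Cy3 and hybridised to Agilent one-colour arrays, and 2 of the 6 deposited arrays enter this comparison. The deposited intensity of each spot is the background-subtracted, processed signal of Agilent Feature Extraction 10.10.1.1, per the file headers and the submitters' processing notes. Whether a spot is well above background is another deposited value, a flag of the same software, per the file headers. The deposited value matrix holds log2 values by the authors, and all 6 columns equal log2 processed signal minus 1 constant per array (56305 probes spotted once, 100% within 0.001). Its column medians lay between -2.979 and -2.81, its scale is log2, and its constants lay close to, but not exactly at, the log2 75th percentiles used here.

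Each array's log2 processed signal was reduced by its 75th percentile, taken without control probes, and repeated spots were averaged. A gene was represented by its brightest probe on average over the 6 arrays. Probes spotted 10 times had a median SD of log2 signal of 0.036 on both arrays. The log2 difference between the 2 arrays had a median SD of 0.13 over the probes of a gene. Precision is limited by the number of arrays. A 95% interval is the difference ± 1.96 times the software's spot error of both arrays. Probe names were updated by accession through RefSeq for GRCm38.p6 (32994 probes; 23611 kept the file's name and 1535 names changed). Probe coordinates are in mm9, per the file headers, and no annotation of that build was used here. The members and the 56 gene lists were chosen with earlier results of these data known. Genes were named as the 15 top and 15 bottom differences among measured genes whose signal reached the median (clones and predicted genes left out), up to 4 per list by absolute difference, 11 genes always named, and the 5 highest bounds in each direction; some genes meeting these criteria are left out of the text. A gene counted as different at 2-fold.

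Alternatives were quantile normalization, normexp (offset 50, limma 3.58.1), both together, the percentile over probes above background on all arrays, the 7 E1A spike-in probes, the deposited log2 matrix, 3 filters, the mean over probes, the file's own gene names, and 1.5-fold and 3-fold thresholds. The computation was tested on simulated data. Python 3.11.15, numpy 2.4.6, pandas 2.3.3, matplotlib 3.10.9, R 4.3.3 and its data.table package (1.17.8) were used. Both arrays lay on 1 slide, so slide was not a term.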

Additional observations from a re-analysis of the deposited data

How the results depend on the processing

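With 1 array per group no replicate could be left out. No paired analysis was possible because each group has 1 array. Under normexp with the 75th percentile 548 genes were 2-fold apart, 225 of them higher, and 547 of the 548 were also 2-fold apart in the reported values; with normexp and quantile normalization 531 were apart, 197 higher. E1A spike-in scaling gave 289 higher and 753 lower, by construction of its shift. Without a filter on dim probes 3023 genes were apart, 1840 higher and 1183 lower; among genes brighter than the median 263 were, 66 higher and 197 lower. At 1.5-fold 2544 were apart, 1456 higher and 1088 lower, and at 3-fold 358, 183 higher and 175 lower. Among list medians the mast cell median was -0.0052 over brighter genes, reversed. The sympathetic median was 0.90 over brighter genes and over genes above background on all 6 arrays, the pituitary median 1.21 with no filter and 4.54 over brighter genes, and the cerebellar median -2.0 under normexp with the 75th percentile; the filters leave fewer or more genes, and the cause under normexp was not tested. Each list or named gene was counted once per alternative that gave it a value. In that count 609 list medians and 2477 values of single named genes stayed within the 95% spot-error interval. Another 67 values of single genes left it. For a list the interval used the median spot error of its single genes. The interval reaches further than the E1A shift of -0.26. Values under E1A scaling therefore stayed within it by construction, also where a list median changed sign. The epidermal list had too few brighter genes for a value. Dim genes are the least certain, with 6.76% of the dimmest set 2-fold apart.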

Other observations

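Some of the largest differences lay in dimmer genes outside the rule for named genes, and the 6 given here were chosen after their values were seen. Il22, an interleukin of lymphocytes, had the lowest difference of all measured genes, with log2 levels of -1.81 on baseline, 0.28 on noise only, 0.45 on saline 12 h, 0.55 on dexamethasone 12 h, -2.27 on saline 24 h and -4.46 on dexamethasone 24 h. Crtam, a receptor of activated T and NK cells, had levels of -2.16, 1.57, 1.39, 1.33, -0.50 and -2.44 in the same order. Both immune genes were high on the noise-only and 12 h arrays, as were the Purkinje cell gene Ppp1r17, with 0.39 on noise only and -4.08 on dexamethasone 24 h, and the cerebellar list described above. Whether their probes measure the named immune genes was not tested.

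Among the highest, Glra1, a glycine receptor subunit of brainstem and spinal cord, had levels of 2.34 on baseline, -2.97 on noise only, -2.03 on saline 12 h, -1.94 on dexamethasone 12 h, 0.56 on saline 24 h and 1.53 on dexamethasone 24 h. It was high on the 3 arrays where the cerebellar list was low. Krt15, a keratin of basal epithelium, was 23.7-fold over noise only, with -4.84 on noise only, -0.36 on saline 24 h and -0.27 on dexamethasone 24 h. Cryba2, a beta crystallin, was 17.3-fold over noise only and close to background there, at -5.11.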
